A study of Saccharomyces cerevisiae with 4 samples.

Results

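GCN4, GCN2 and the genes that bring ammonium into glutamate, glutamine and asparagine were followed in budding yeast, Saccharomyces cerevisiae. The 8 genes, of 6688 in the deposited tables, were taken by their systematic names: GCN4 (YEL009C), GCN2 (YDR283C), GLN1 (YPR035W), GDH1 (YOR375C), GDH3 (YAL062W), GLT1 (YDL171C), ASN1 (YPR145W) and ASN2 (YGR124W). Polyadenylated RNA was sequenced from nhp6ab cells (2 libraries) and from WT cells (2 libraries). Both strains were in exponential growth in YPD, a rich glucose medium. The name nhp6ab is the usual one for cells without NHP6A and NHP6B, whose small HMG-box proteins bend DNA and work with the histone chaperone FACT. The bases deleted, the strain background and the mating type are not given in the labels, nor is it said whether the 2 libraries of a strain came from separate cultures, so every p-value rests on library-to-library spread that could be purely technical.

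Gcn2 is a protein kinase that senses uncharged tRNA and phosphorylates the translation initiation factor eIF2, a step that lets ribosomes reach the start codon of GCN4. Gcn4 is the transcription factor that then raises the genes of amino acid synthesis. Ammonium enters metabolism through glutamate dehydrogenase (Gdh1, with Gdh3 as its isoenzyme) and glutamine synthetase (Gln1), glutamate synthase (Glt1) returns glutamine nitrogen to glutamate, and the asparagine synthetases Asn1 and Asn2 pass it on to aspartate. The RNA counts measure the transcripts and not the translation of GCN4 or the activity of any enzyme.

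The best known regulatory sequence of this group is the site that Gcn4 binds, whose core is TGACTC. On both strands of the 500 bases before the start codon, TGACTC occurred in 4 of the 8 genes, against 12.7% of 6000 genes in the R64 reference. GLN1, which was higher in nhp6ab, and GDH1, ASN1 and ASN2, which were lower, are the 4 that carry one. The matches are shown with these directions known, and the genes that carry one went both ways. Each is printed on the strand of its gene, read from the RefSeq R64 genome, with the core in capitals.
GLN1, chrXVI:641928-641957, plus strand: atgaattaaagaTGACTCcgacgcatattg
GDH1, chrXV:1043517-1043542, minus strand: aggttccaTGACTCcatggaaacggg
ASN1, chrXVI:822381-822410, plus strand: tcatgtaacattTGACTCattctgtaaact
ASN2, chrVII:739735-739764, plus strand: ttttcttagcatTGACTCatggcaagattt
The cores begin 268 bases before the start codon in GLN1, 492 in GDH1, 227 in ASN1 and 197 in ASN2. The annotated gene YOR376W, transcribed away from GDH1, begins 148 bases upstream of it, so the GDH1 match lies beyond the start of that gene. In ASN1 and ASN2 the core is followed by an A, as in the longer form TGACTCA. A match is a description of the letters, and binding was not measured.

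The label of the strain was checked on its own genes first. NHP6A had 11.1 and 12 CPM (counts scaled to library size with TMM factors, which set libraries to a common typical gene) in nhp6ab, against 122 and 130 CPM in WT. NHP6B had 33.4 and 32.6 CPM in nhp6ab, against 80.01 and 86.02 CPM in WT. Both were lower in nhp6ab in edgeR's quasi-likelihood test (log2 fold changes -3.44 ± 0.07 and -1.33 ± 0.06 SE, adjusted p = 1.05e-06 and 1.35e-05), and both overlap another open reading frame, so the counts left cannot be placed with certainty. Expected counts summed to 28721743 to 29115870 in nhp6ab and to 22622592 to 27581468 in WT, and the 8 genes held 895 to 61115 counts each per library.

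In nhp6ab, 4 of the 8 genes were called higher and 3 lower by edgeR (adjusted p under 0.05), and 1 was not called. Over all 6422 genes tested, 24.5% were called higher and 25.0% lower, so 49.5% were called in all, and a call is common in this comparison. Without WT replicate 1 the genes called numbered 1964 and without WT replicate 2 they numbered 2022, against 3182 with all libraries, and of the 8 genes 5 were called in each case. GCN4, GCN2, GLN1 and GLT1 were higher, GDH1, ASN1 and ASN2 lower, and GDH3 was not called. Both nhp6ab libraries lay above both WT libraries in 5 of the 8 genes, as in 38.9% of genes tested, and below them in 3, as in 38.7%. The strains thus overlapped in 0 of the 8 genes, and did not overlap in 77.5% of genes tested. The scaling matters for the smaller changes: the median log2 fold change of all genes was 0.01 with TMM, 0.22 with library size alone and 0.28 on the log2(TPM + 1) scale. With library size alone 79.1% of called genes were higher, against 49.5% with TMM.

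**Figure D1:**
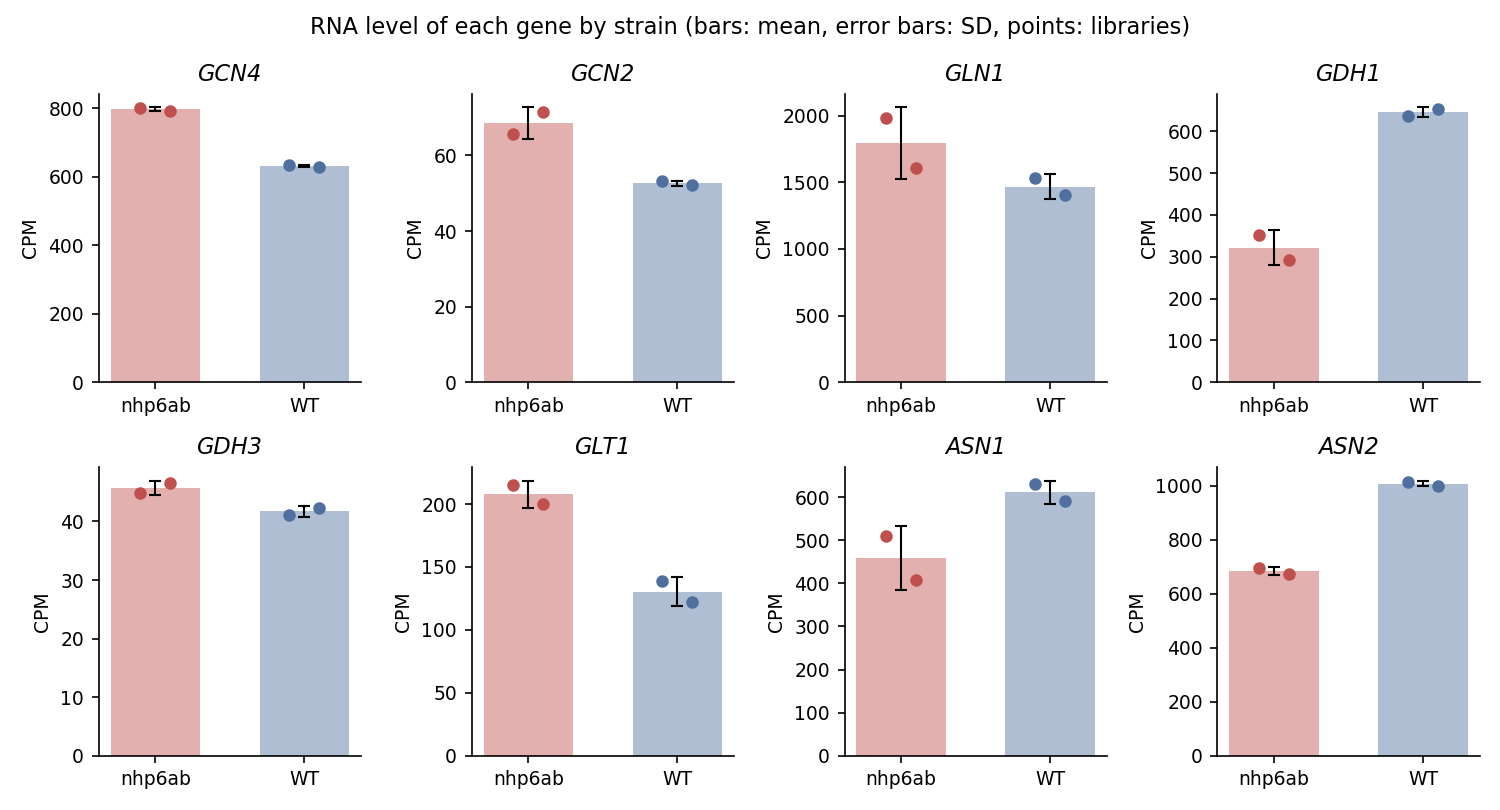
RNA level of each of the 8 genes in CPM (vertical axes, each from 0) in nhp6ab and WT. Bars are means, error bars SD (n = 2 each) and points single libraries. GDH1, ASN1 and ASN2 lie lower in nhp6ab and the other 5 higher, and in GLN1 and ASN1 the 2 nhp6ab libraries lie far apart.

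GCN4 and GCN2, the transcription factor and the kinase of the pathway, were both modestly higher. GCN4 (R64 chromosome V, 138918 to 139763, minus strand, a single exon) had 801 and 793 CPM in nhp6ab, against 634 and 629 CPM in WT. The groups did not overlap, and the difference was far larger than that between replicates (log2 fold change 0.34 ± 0.05 SE, edgeR adjusted p = 0.00240). GCN2 (chromosome IV, 1025070 to 1030049, minus strand, a single exon) had 65.7 and 71.5 CPM in nhp6ab, against 53.1 and 52.1 CPM in WT (0.38 ± 0.06 SE, adjusted p = 0.00218 in edgeR). Both nhp6ab libraries were again above both WT libraries. Per length, GCN4 averaged 892 ± 10.5 TPM in nhp6ab and 577 ± 12.6 TPM in WT, and GCN2 averaged 12.6 ± 0.998 TPM in nhp6ab and 7.87 ± 0.11 TPM in WT (SD, n = 2 each). TPM (transcript share scaled for length) is scaled to the sum over all genes and not by TMM. The ratio of GCN4 to GCN2 TPM was 74.5 and 67.7 in the nhp6ab libraries and 72.9 and 73.7 in the WT libraries, so the ranges overlapped. An exact permutation test, two-sided, gave p = 1 for this ratio, and 2 libraries against 2 cannot go below 0.333.

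The leader of GCN4 mRNA is known for short upstream reading frames that control its translation. In the 600 bases before its start codon the R64 sequence holds 4 complete reading frames that open with ATG, at 361, 293, 176 and 151 bases before the start codon, of 3, 2, 3 and 3 codons before their stop. TGACTC was absent from the 500 bases before GCN4 and before GCN2. The nearest annotated gene upstream of GCN4 is YEL008W, which is transcribed away from it at a distance of 748 bases. It had a low level, 2.02 CPM in nhp6ab and 0.93 CPM in WT (means), and was called higher (log2 fold change 1.10 ± 0.27 SE, edgeR adjusted p = 0.0134).

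Glutamine synthetase and glutamate synthase RNA were both higher. GLN1 (chromosome XVI, 642208 to 643320, plus strand, 1 exon), the only glutamine synthetase gene of yeast and the most abundant of the 8 genes, had 1985 and 1606 CPM in nhp6ab, against 1533 and 1404 CPM in WT. The groups did not overlap, but the nhp6ab libraries differed from each other by more than the lower one differed from WT (0.29 ± 0.10 SE, adjusted p = 0.0497 in edgeR). The call was lost without nhp6ab replicate 1 (log2 fold change 0.12, adjusted p = 0.235), without WT replicate 1 (0.35, adjusted p = 0.126) or without WT replicate 2 (0.23, adjusted p = 0.273), and also with upper quartile factors or no low-count filter (adjusted p = 0.0561 in each). GLT1 (chromosome IV, 149203 to 155640, minus strand, a single exon) had 215 and 200 CPM in nhp6ab, against 139 and 122 CPM in WT. It was the largest increase among the 8 genes, 1.59-fold (0.67 ± 0.08 SE, adjusted p = 0.000565 in edgeR), and ranked 273 among the 6422 genes by log2 fold change. Per length GLT1 averaged 29.4 ± 0.98 TPM in nhp6ab and 15.04 ± 0.94 TPM in WT (SD, n = 2 each).

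GDH1 showed the largest decrease of the 8 genes, while its isoenzyme gene GDH3 was not called. GDH1 (chromosome XV, 1041678 to 1043042, minus strand, 1 exon), which encodes the main NADP-dependent glutamate dehydrogenase on glucose, had 352 and 292 CPM in nhp6ab, against 637 and 654 CPM in WT. The fitted level in nhp6ab was 49.9% of that in WT (log2 fold change -1.003 ± 0.091 SE, edgeR adjusted p = 0.000215), the 204th largest decrease of the 6422 genes. GDH3 (chromosome I, 31567 to 32940, plus strand, 1 exon), better known from growth on nonfermentable carbon, had 44.8 and 46.6 CPM in nhp6ab, against 41.1 and 42.3 CPM in WT. The libraries did not overlap, but the gene was not called (0.13 ± 0.06 SE, 95% interval -0.01 to 0.27, adjusted p = 0.105 in edgeR). With library size alone its log2 fold change was 0.35 (adjusted p = 0.00423 in edgeR) and on the log2(TPM + 1) scale 0.41 (adjusted p = 0.00695 in limma), where the median gene was at 0.22 and 0.28.

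Per length, GDH1 RNA exceeded GDH3 RNA 7.90 and 6.32 times in the nhp6ab libraries and 15.6 and 15.5 times in the WT libraries. The ratio of the pair was therefore lower in both nhp6ab libraries, by 1.14 on the log2 scale. It does not depend on the scaling of the library, since both genes are read in the same one. An exact permutation test, two-sided, gave p = 0.333, the smallest that 2 libraries against 2 allow. GDH1 and GDH3 together summed to 267 and 234 TPM in nhp6ab, against 370 and 395 TPM in WT. Their coding sequences were 76.6% identical over 1368 bases, with 35 bases as the longest identical stretch.

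Both asparagine synthetase genes were lower. ASN2 (chromosome VII, 739944 to 741662, plus strand, 1 exon) had 696 and 674 CPM in nhp6ab, against 1016 and 1001 CPM in WT (log2 fold change -0.56 ± 0.06 SE, edgeR adjusted p = 0.000288). ASN1 (chromosome XVI, 822620 to 824338, plus strand, 1 exon) had 511 and 407 CPM in nhp6ab, against 630 and 592 CPM in WT. In ASN2 the replicates lay close together, whereas in ASN1 the nhp6ab libraries spread widely (-0.41 ± 0.11 SE, adjusted p = 0.0163 in edgeR). ASN1 lost its call without WT replicate 1 (-0.37, adjusted p = 0.129), without WT replicate 2 (-0.46, adjusted p = 0.0800), with library size alone (-0.20, adjusted p = 0.0918) and on the log2(TPM + 1) scale (-0.13, adjusted p = 0.344 in limma). In TPM ASN1 had 271 and 222 in nhp6ab, against 272 and 265 in WT, and these ranges overlapped. ASN1 to ASN2 ratios of TPM were 0.73 and 0.60 in nhp6ab and 0.62 and 0.59 in WT, again overlapping (exact permutation test, two-sided, p = 0.667). ASN1 and ASN2 are 81.2% identical over 1709 bases with a longest identical stretch of 83 bases, so reads from such stretches were divided between them by estimate.

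**Figure D2:**
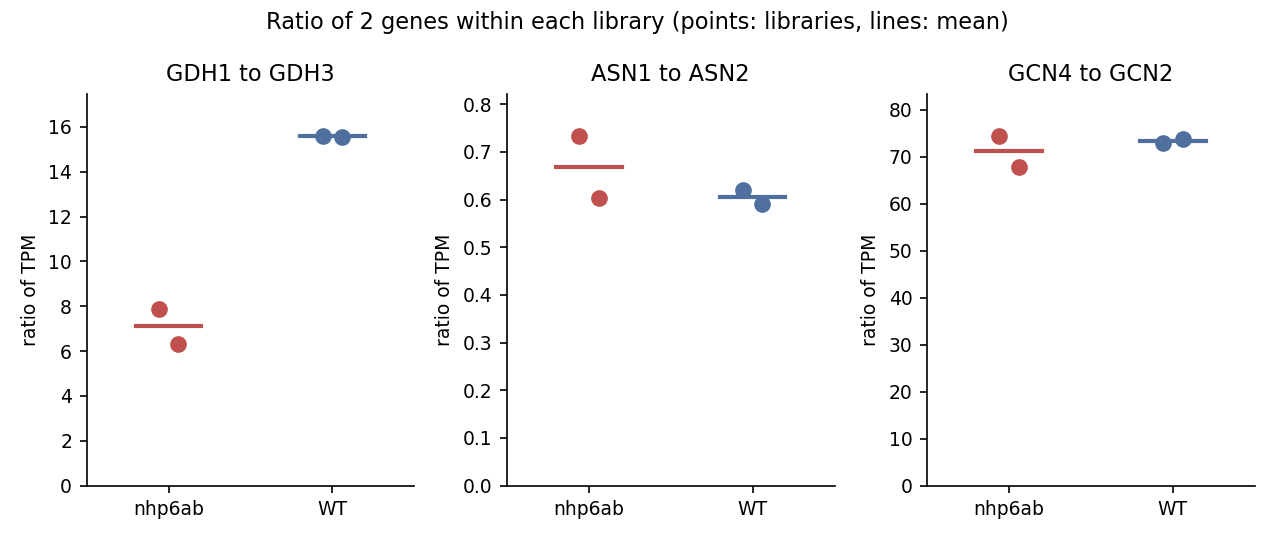
Ratio of TPM of 2 genes within each library (vertical axes, each from 0), for GDH1 to GDH3, ASN1 to ASN2 and GCN4 to GCN2, in nhp6ab and WT. Points are libraries and lines means of 2. The GDH1 to GDH3 ratio is 6.32 and 7.90 in nhp6ab and 15.5 and 15.6 in WT, and the other ratios overlap between strains.

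**Figure D3:**
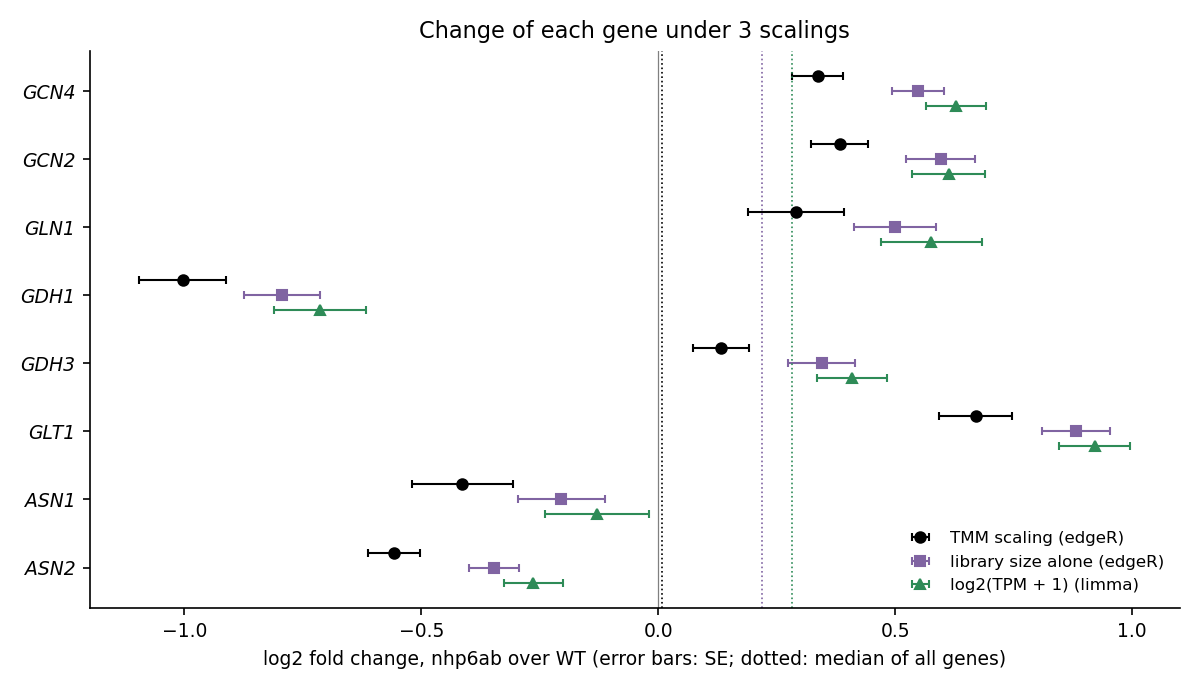
Log2 fold change of the 8 genes, nhp6ab over WT (horizontal axis), with TMM scaling, with library size alone and on the log2(TPM + 1) scale. Error bars are SE, and dotted lines mark the median of all genes at 0.01, 0.22 and 0.28. Each of the 8 genes keeps its sign under the 3 scalings, while ASN1 comes near 0 and GDH3 stays close to the median gene.

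Per length, the order of the 8 genes was led by GLN1 in both strains, at 1509 ± 197 TPM in nhp6ab and 1008 ± 35.3 TPM in WT (SD, n = 2 each). GCN4 and ASN2 followed in both strains, with ASN2 at 369 ± 1.16 TPM in nhp6ab and 443 ± 7.59 TPM in WT. The next places changed: ASN1 and GDH1, at 247 ± 34.8 and 219 ± 24.3 TPM, overlapped in nhp6ab, whereas in WT GDH1, at 359 ± 16.5 TPM, stood above ASN1, at 268 ± 4.51 TPM. GDH3 and GLT1 overlapped in nhp6ab, at 31.0 ± 1.43 and 29.4 ± 0.98 TPM, whereas in WT GDH3, at 23.1 ± 1.13 TPM, stood above GLT1, at 15.04 ± 0.94 TPM. GCN2 was the lowest of the 8 genes in both strains.

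The genes on either side were examined because the labels do not say whether counting used strand. No annotated R64 gene overlaps any of the 8 genes. Of their 16 nearest neighbours 13 were tested, of which 6 were called higher and 4 lower. Over all genes tested 24.5% were called higher and 25.0% lower. PAR32, which ends 124 bases from the end of GLT1 on the opposite strand, was higher with it, at 91.5 CPM in nhp6ab and 46.7 CPM in WT (means; log2 fold change 0.97 ± 0.06 SE, edgeR adjusted p = 4.72e-05). UGA3, an activator of the genes of GABA use, begins 677 bases upstream of GLT1 and is transcribed away from it. It was lower, at 57.05 CPM in nhp6ab and 68.9 CPM in WT (-0.27 ± 0.06 SE, adjusted p = 0.00657 in edgeR). BDH2, 507 bases downstream of GDH3, was lower, at 83.4 CPM in nhp6ab and 210 CPM in WT (-1.33 ± 0.05 SE, adjusted p = 1.03e-05 in edgeR). The largest change among the neighbours was that of YPR145C-A, 351 bases downstream of ASN1 and lower with it. Its level was low, at 1.24 CPM in nhp6ab and 7.65 CPM in WT (-2.63 ± 0.20 SE, adjusted p = 9.79e-05 in edgeR). These neighbours were singled out after their values were seen.

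Upstream of GCN4 translation, the genes for eIF2 and for most subunits of its exchange factor eIF2B were lower, whereas GCN4 and GCN2 were higher. Of 12 listed genes 7 were called lower and 0 higher in edgeR, against 25.0% and 24.5% of all genes tested. In the list 8 had an unadjusted p under 0.05, and the median log2 fold change was -0.22. DESeq2 also called 7 lower and 0 higher. The eIF2 genes SUI2 (-0.23 ± 0.06 SE), SUI3 (-0.29 ± 0.06 SE) and GCD11 (-0.22 ± 0.05 SE) fell only slightly. Their mean TPM, which is not scaled by TMM, was 178, 352 and 135 in nhp6ab, against 170, 352 and 129 in WT. Between strains these values were thus close, on a scale where the median of all genes was higher in nhp6ab. Among the eIF2B genes, GCD7 had 63.4 and 69.7 CPM in nhp6ab, against 97.7 and 93.8 CPM in WT (-0.53 ± 0.06 SE), and GCD2 (-0.42 ± 0.05 SE) and GCD1 (-0.39 ± 0.06 SE) were lower too. The eIF2B genes GCN3 (0.05 ± 0.05 SE) and GCD6 (-0.07 ± 0.06 SE) were not called. YIH1, which encodes an inhibitor of Gcn2 activation, was lower (-0.39 ± 0.05 SE, adjusted p = 0.000922 in edgeR). GCN1 and GCN20, whose products Gcn2 needs to be activated, had log2 fold changes of 0.03 and -0.09 and were not called. These decreases depend on the scaling: with library size alone 3 were called lower and 2 higher, and on the log2(TPM + 1) scale limma called 2, both higher, with a median of 0.07 where the median of all genes was 0.28. Without WT replicate 1, 4 were called lower.

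Genes that act on Gcn4 protein went both ways. PCL5, which encodes the cyclin that directs the kinase Pho85 to Gcn4 and so to its degradation, had 27.8 and 26.2 CPM in nhp6ab, against 75.0 and 80.6 CPM in WT (-1.53 ± 0.07 SE, adjusted p = 1.1e-05 in edgeR). PHO85 itself was higher (0.28 ± 0.06 SE), as were CDC34 (0.35 ± 0.06 SE) and CDC4 (0.32 ± 0.05 SE), which encode a ubiquitin-conjugating enzyme and an SCF ligase subunit. The other SCF subunit genes listed were not higher. CDC53 was called lower (-0.22 ± 0.06 SE, adjusted p = 0.0178 in edgeR) and SKP1 was not called (-0.05 ± 0.06 SE). In all, 4 of 9 listed genes were called higher and 2 lower, with a median of -0.05. The shares over all genes tested were 24.5% higher and 25.0% lower, so the share called lower was near that of all genes. PHO85 lost its call without WT replicate 1 (adjusted p = 0.0677), where the list had 2 higher and 1 lower, and without WT replicate 2 the list had 3 higher and 1 lower.

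The amino acid synthesis genes usually given as Gcn4 targets were lower in most cases while GCN4 RNA was higher. Of 44 genes outside the 8, 29 were called lower, 3 higher and 12 not, with a median log2 fold change of -0.59 against 0.01 over all genes tested. Of all genes tested 25.0% were called lower and 24.5% higher. ARG1, argininosuccinate synthetase, had 38.6 and 35.1 CPM in nhp6ab, against 392 and 452 CPM in WT (-3.52 ± 0.09 SE), the farthest of the list. The lysine genes LYS20 (-2.83 ± 0.06 SE), LYS9 (-1.88 ± 0.07 SE) and LYS1 (-1.56 ± 0.07 SE) were lower as well, LYS20 being 95.3% identical to LYS21 and thus uncertain. The 3 called higher were HIS3 (1.39 ± 0.16 SE), SER33 (0.41 ± 0.14 SE) and ILV3 (0.26 ± 0.06 SE), named after their values were seen. HIS3 had 327 and 225 CPM in nhp6ab, against 99.3 and 111 CPM in WT. SER33 was near the threshold (adjusted p = 0.0491 in edgeR), at 333 and 242 CPM in nhp6ab, against 205 and 229 CPM in WT. With library size alone 26 were called lower and 8 higher, and on the log2(TPM + 1) scale 23 and 8. Those called higher numbered 6 without nhp6ab replicate 2, 1 without WT replicate 1 and 2 without WT replicate 2. TGACTC stood in the 500 bases before 32 of the 44 genes (72.7%). Among all tested genes, the 752 with TGACTC there had a median log2 fold change of -0.01 (177 called higher and 212 lower), and the 5107 without it had 0.01 (1319 and 1320). The difference between these groups was not tested.

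**Figure D4:**
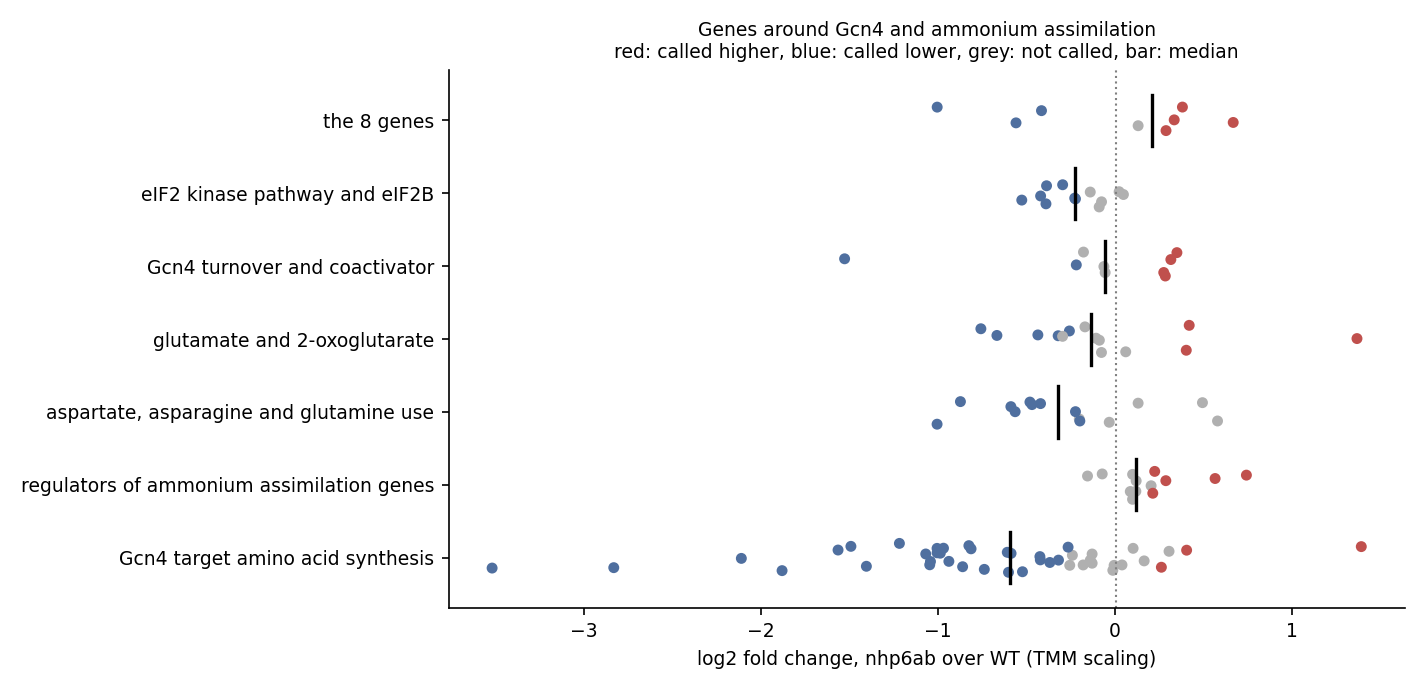
Log2 fold change, nhp6ab over WT with TMM scaling (horizontal axis), of the 8 genes and of 6 lists around them. Each point is a gene, red where called higher, blue where called lower and grey where not called in edgeR, the bars are medians and the dotted line is the median of all genes. The Gcn4 target list has a median of -0.59 and the 8 genes are spread between -1.003 and 0.67.

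Of 14 genes for enzymes that break down or form glutamate or supply its carbon, 3 were called higher, 5 lower and 6 not, with a median of -0.14. These shares are near those over all genes tested, of which 24.5% were called higher and 25.0% lower. PUT1, proline oxidase, which feeds proline into glutamate, had 35.4 and 37.3 CPM in nhp6ab, against 14.9 and 13.1 CPM in WT (1.37 ± 0.08 SE, adjusted p = 4.35e-05 in edgeR). GDH2, the NAD-dependent glutamate dehydrogenase that releases ammonium, was higher (0.42 ± 0.12 SE), as was PUT2 (0.40 ± 0.08 SE), the step after PUT1, both taken beside the named genes for their reaction. Glutamate decarboxylase GAD1 (-0.67 ± 0.06 SE) and 2 isocitrate dehydrogenase genes, IDP1 (-0.76 ± 0.07 SE) and IDH2 (-0.43 ± 0.07 SE), which form 2-oxoglutarate, were lower. IDH1, the partner subunit of IDH2, was at 0.06 ± 0.08 SE (adjusted p = 0.544 in edgeR) and IDP2 at -0.29 ± 0.11 SE (adjusted p = 0.0639 in edgeR), and neither was called. On the log2(TPM + 1) scale IDH2 was not called (adjusted p = 0.188 in limma), and 4 were higher and 2 lower. Without WT replicate 1 or WT replicate 2, 1 was called higher, with 5 and 4 lower.

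Genes of aspartate, asparagine and glutamine use were lower more often than higher. Of 14, 9 were called lower and 0 higher in edgeR, against 25.0% and 24.5% of all genes tested. In the list 9 had an unadjusted p under 0.05, and the median was -0.32. DESeq2 called 9 lower and 0 higher as well, and limma on the log2(TPM + 1) scale 4 lower and 2 higher. TGACTC stood upstream of 10 of the 14 genes (71.4%), a share close to that of the Gcn4 target list (32 of 44, 72.7%). Whether the decreases here are separate from those of the Gcn4 target list was not tested. The CTP synthetase genes URA7 (-1.004 ± 0.086 SE) and URA8 (-0.87 ± 0.07 SE), TRP3 (-0.59 ± 0.06 SE) of tryptophan synthesis and the asparaginase gene ASP1 (-0.56 ± 0.06 SE) were called. HIS7 and ADE4, at 296 and 338 CPM in nhp6ab replicate 1 and 161 and 163 CPM in nhp6ab replicate 2, against 152 to 174 CPM in the WT libraries, were not called (adjusted p = 0.134 in each). They were added for this difference between the nhp6ab libraries. It runs in the same direction in GLN1, GDH1 and ASN1, and also in HIS3, SER33 and GDH2 among others. Its part in the results for those genes was not tested. With library size alone 7 were called lower and 4 higher, and without nhp6ab replicate 2, 8 lower and 2 higher.

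Regulators of the ammonium assimilation genes were higher where they were called with all libraries. Without nhp6ab replicate 1 not every call in this list was higher. Of 14 listed, 13 were tested and 5 called, all higher, with a median of 0.12. Over all genes tested 24.5% were called higher and 25.0% lower. DAL80, with 4.03 to 10.1 expected counts per library, was below the filter. HAP4 had 97.8 and 110 CPM in nhp6ab, against 63.4 and 60.6 CPM in WT (0.74 ± 0.07 SE, adjusted p = 0.000258 in edgeR), and HAP3 (0.57 ± 0.06 SE) and HAP2 (0.29 ± 0.07 SE), of the same CCAAT-binding complex, were higher too. MKS1, a negative regulator of the retrograde pathway, was higher (0.23 ± 0.06 SE). GLN3 (0.10 ± 0.09 SE) and URE2 (-0.07 ± 0.05 SE), the activator of nitrogen genes and its inhibitor, were not called. HAP2 lost its call without WT replicate 2 (adjusted p = 0.0727) and MKS1 without WT replicate 1 or 2 (adjusted p = 0.117 and 0.0610), and 3 and 2 of the list were called without these libraries in turn. The letters CCAAT stood before 6 of the 8 genes, against 62.4% of all genes, and GATAAG, the letters of GATA factor sites, before 5, against 22.8%. LEU3, which encodes an activator that also acts on GDH1, was not called (0.10 ± 0.05 SE). All motifs were searched on both strands of the same 500 bases.

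Genes most similar in pattern over the 4 libraries were found by Euclidean distance between log2 CPM values, each centred on its own mean. For GCN4 these were ESC1 (distance 0.013) and DIG1 (0.014), for GLT1 FLO5 (0.038) and GCR1 (0.047), and for GDH1 BNA5 (0.076) and ARO10 (0.086). For GCN2 they were YOR139C (0.020) and VPS53 (0.027), for GLN1 ECM21 (0.065) and RAD1 (0.069), and for GDH3 GEP5 (0.0081) and BIK1 (0.010). For ASN1 they were YIL071W-A (0.045) and YPR126C (0.076), and for ASN2 SDH6 (0.026) and RPS25A (0.027). Mean levels of YOR139C, YIL071W-A and YPR126C were low, at 1.16, 5.47 and 5.13 CPM in nhp6ab and 0.86, 7.11 and 6.54 CPM in WT. None of them matched RefSeq or was called (adjusted p = 0.223, 0.0940 and 0.112 in edgeR). With 4 libraries such neighbours are easily found: 358 genes lay within 0.1 of GCN4, and 4 within 0.1 of GDH1.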

How the data were processed

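The deposited tables hold RSEM expected counts and TPM per gene, both so named by the deposited sheets, and the authors scaled the TPM values for length and library total. The genome build is sacCer3, as the submitters' processing notes have it. The aligner, annotation and strand setting were not given in the sources used here. Coordinates, which the tables lack, were taken from the RefSeq R64 reference, of which sacCer3 is another name. Of 6688 identifiers, 6005 matched it by locus tag.

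Rounded expected counts were fitted with edgeR 4.0.16 under R 4.3.3 (TMM, minimum count 10 and total 15, quasi-likelihood F test, no term but strain), with Benjamini-Hochberg adjustment over the 6422 genes kept, and called at an adjusted p under 0.05. SE was taken as log2 fold change over the root of F. Intervals cover the spread between libraries. Ratios used TPM. Coding sequences were compared with BLAST+ 2.17.0. Alternatives used DESeq2 1.42.0 and limma 3.58.1 on log2(TPM + pseudocount), among genes above 1 TPM in 2 libraries. These fold changes understate those of low genes. Figures used matplotlib 3.10.9.

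The 8 genes, the lists, the tests and the alternatives were chosen with earlier results of these data known. Named genes were the 8, NHP6A and NHP6B, up to 4 called genes per list by smallest adjusted p (up to 2 by unadjusted p where none was called) and the 2 nearest genes to each of the 8. Other genes, such as GCN1, GCN20, GLN3, URE2, LEU3 and the neighbours, were taken for their role or place with their values known.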

Additional observations from a re-analysis of the deposited data

How the results depend on the processing

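All 8 genes kept their direction under every alternative tried. GCN4, GCN2, GDH1, GLT1 and ASN2 also kept their calls, with log2 fold changes of 0.32 to 0.63, 0.32 to 0.67, -1.15 to -0.71, 0.58 to 0.96 and -0.59 to -0.26. GLN1 ranged over 0.12 to 0.58 (adjusted p up to 0.273), ASN1 over -0.59 to -0.13 and GDH3 over 0.10 to 0.42. On the TPM scale with a pseudocount of 1 or 0.1, 2 genes of the eIF2 list were called in each, against 7; these settings change both the test and the scale, and the cause was not tested. Of the regulators, 11 were called with library size alone, 11 with a pseudocount of 1 and 10 with 0.1, against 5. With each library left out in turn, calls numbered 1964 to 3019 over all genes, 5 to 7 of the 8 genes, 4 to 7 in the eIF2 list, 3 to 6 in the Gcn4 turnover list, 5 to 9 in the glutamate list, 7 to 10 in the glutamine use list, 2 to 6 in the regulators and 28 to 35 in the Gcn4 targets. All the lowest of these counts came without a WT library. The 1964 came without WT replicate 1 and 2022 without WT replicate 2, which leave a lone WT library that is assumed to vary like nhp6ab. The log2 difference of ratios ran from -1.30 to -0.98 for GDH1 to GDH3, from -0.0057 to 0.28 for ASN1 to ASN2 and from -0.11 to 0.024 for GCN4 to GCN2, where the last 2 changed sign without nhp6ab replicate 1 and without nhp6ab replicate 2. The cause was not tested. With the replicate number as a block, 3312 genes were called, against 3182, and 7 of the 8. Same-numbered libraries share only a number (correlation of the differences between replicates -0.065). Counting error alone would give a chi-square near its degrees of freedom between replicates, and the quotient was 22.3 for the nhp6ab libraries and 24.4 for the WT libraries.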
